A study of Mus musculus with 2 samples.

Results

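Antibody messenger RNAs were described through the splice junctions of the immunoglobulin heavy chain locus and the immunoglobulin kappa light chain locus in mouse colon. A splice junction is a pair of genome positions that sequencing reads join directly, leaving out the bases between them. The members were the rows of the deposited mm9 junction file with both ends in chr12:114400000-117300000 (heavy window) or in chr6:67500000-70750000 (kappa window). There were 2033 of them among the file's 402639 junctions, 1382 in the heavy window and 651 in the kappa window.

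The study has 1 group, colon of adult C57BL/6J mice aged 8 weeks, with no treatment and no mutant allele given in the labels. Polyadenylated RNA longer than 200 bases, depleted of ribosomal RNA, was sequenced as paired reads of 76 bases in 2 stranded libraries that the labels number as biological replicates 1 and 2. Both libraries carry 1 donor record and are described as littermates of mixed sex, and the difference between them may be technical in part. The junction file holds a read count for each library, called R1 and R2 in its row names, and which of them is replicate 1 is not stated.

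The libraries did not look alike in every respect. In the gene tables Xist, the RNA of the inactive X chromosome, had 8721 expected counts in replicate 1 and 12 in replicate 2, and 4 Y-linked genes together had 0 in replicate 1 and 1382 in replicate 2, although both are labelled as pooled sexes. The 6 markers of pancreatic acinar cells summed to 26.3 TPM in replicate 1 and 28100 TPM in replicate 2. The colon epithelial list (Muc2, Tff3, Krt8, Krt20, Car1, Lypd8) was above 1 TPM in both replicates for 6 of 6 genes, with sums of 32200 TPM in replicate 1 and 34700 TPM in replicate 2. The plasma cell list summed to 653 and 678 TPM and the B cell list to 37.4 and 46.3 TPM, replicate 1 given first, and none of these genes was at 0 in both. In the plasma cell sum, Sdc1 had 181.78 and 219.6 TPM and Xbp1 170.65 and 131.35 TPM. Whether their RNA came from plasma cells was not tested. The part of these library differences in the junction results was not tested, and each junction result is given for R1 and for R2. In bulk tissue, fewer cells of a type and less RNA per cell cannot be told apart.

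An antibody chain is encoded in pieces. In a developing B cell the genome itself is cut and rejoined, so that 1 variable (V) segment, in the heavy chain 1 diversity (D) segment, and 1 joining (J) segment come to lie side by side, and the transcript is then spliced from the leader exon to the V exon and from the J segment to the constant gene. The constant gene sets the class of a heavy chain (Ighm for IgM, Ighd for IgD, the Ighg genes for IgG, Ighe for IgE and Igha for IgA). The gut wall is known for plasma cells that secrete IgA, which the epithelium carries into the lumen on the receptor Pigr. Because the reference genome is not rearranged, V(D)J joints can also appear in a junction file as very long gaps.

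Junctions were named by pairing them with the introns of GENCODE vM21, by equal length and equal spacing within each window, with no coordinate converted. A single spacing paired 127 heavy and 88 kappa junctions, and the next best spacing paired 1 in each window. All coordinates printed are mm9, from the junction file.

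The joins that carried most reads are shown as mature RNA sequence, built from the GENCODE vM21 transcripts, with the last exon bases before the junction in lower case and the bases after it in capitals. The first set joins each heavy J segment, shown whole, to the first 30 bases of the IgA constant gene Igha. The 4 sequences differ on the J side and end in the same capitals, because 1 acceptor serves all 4 J segments.
Ighj1 to Igha: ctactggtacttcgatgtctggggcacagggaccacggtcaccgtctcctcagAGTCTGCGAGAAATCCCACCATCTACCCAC
Ighj2 to Igha: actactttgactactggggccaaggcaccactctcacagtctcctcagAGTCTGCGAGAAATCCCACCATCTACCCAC
Ighj3 to Igha: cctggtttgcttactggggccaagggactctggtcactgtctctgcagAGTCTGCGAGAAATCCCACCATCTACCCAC
Ighj4 to Igha: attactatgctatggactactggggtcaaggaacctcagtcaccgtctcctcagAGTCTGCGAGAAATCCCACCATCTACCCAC

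The second set joins the kappa J segments to the first 30 bases of Igkc, the kappa constant gene, in capitals. Igkj3 is shown because it had almost no reads.
Igkj1 to Igkc: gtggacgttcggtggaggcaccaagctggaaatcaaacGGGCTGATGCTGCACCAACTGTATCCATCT
Igkj2 to Igkc: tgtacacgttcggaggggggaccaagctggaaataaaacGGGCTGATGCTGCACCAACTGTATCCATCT
Igkj3 to Igkc: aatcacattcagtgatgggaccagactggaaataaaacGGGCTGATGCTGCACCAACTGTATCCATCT
Igkj4 to Igkc: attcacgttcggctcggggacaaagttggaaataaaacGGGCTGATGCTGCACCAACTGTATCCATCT
Igkj5 to Igkc: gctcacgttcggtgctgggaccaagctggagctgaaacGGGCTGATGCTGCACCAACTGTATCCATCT

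The third set shows the 3 introns of Igha, 30 bases on each side. Introns 1 and 2 lie between the exons of the secreted form, and intron 3 leads to the exon of the membrane form.
Igha intron 1: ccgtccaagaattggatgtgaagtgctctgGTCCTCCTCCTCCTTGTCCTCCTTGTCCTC
Igha intron 2: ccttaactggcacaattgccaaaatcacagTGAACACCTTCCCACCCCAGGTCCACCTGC
Igha intron 3: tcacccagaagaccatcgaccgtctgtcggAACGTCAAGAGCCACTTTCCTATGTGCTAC

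The fourth set shows joints with many reads, with the V or D segment in lower case and the J segment in capitals. They are the annotated segments placed end to end at the positions the junction file gives, not sequences of reads.
Igkv3-12 to Igkj2: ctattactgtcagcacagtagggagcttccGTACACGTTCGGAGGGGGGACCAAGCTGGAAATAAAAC
Igkv3-7 to Igkj2: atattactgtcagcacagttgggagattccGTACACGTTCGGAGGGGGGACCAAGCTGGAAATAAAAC
Igkv3-10 to Igkj1: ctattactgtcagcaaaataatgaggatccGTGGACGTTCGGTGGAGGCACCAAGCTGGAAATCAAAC
Ighd1-1 to Ighj4: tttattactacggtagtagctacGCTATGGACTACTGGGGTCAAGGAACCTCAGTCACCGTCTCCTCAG
Ighd1-1 to Ighj1: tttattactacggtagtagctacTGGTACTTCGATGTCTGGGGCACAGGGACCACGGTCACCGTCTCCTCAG

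The junction file held 18301894 reads in R1 and 19057116 in R2. The windows took 112997 of them in R1 (0.617%) and 112427 in R2 (0.59%). The heavy window had 83562 reads in R1 and 89013 in R2, and the kappa window had 29435 in R1 and 23414 in R2. The reads were concentrated: the 10 junctions with most reads held 90.4% of all heavy reads and 63.6% of all kappa reads, against 3.82% for the top 10 in the rest of the file. In the heavy window 1360 of 1382 junctions were on the minus strand, the strand of the locus, while the kappa window, whose V segments lie in both orientations, had 365 on the plus strand and 286 on the minus strand.

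R1 and R2 were compared at each junction of the whole file with at least 10 reads by a two-sided exact binomial test, adjusted by Benjamini-Hochberg over all of them. Calls needed both an adjusted p no higher than 0.05 and a log2 ratio (R1 over R2) of 1 or more in size. The test compares 2 libraries, covers counting error only, and has no replicate check. Of 363 window junctions tested, 182 were called, 88 higher in R1 and 94 higher in R2, against 10.4% of all 120859 junctions tested. That is 50.1% of the window junctions tested, 51.8% in the heavy window and 47.6% in the kappa window. The median absolute log2 ratio was 1.44 in the windows and 0.483 over all junctions tested.

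With edgeR's exact test at the common dispersion of the libraries, which allows for spread beyond counting, 36 of the 363 were called (9.92%), 18 in each direction, against 0.417% of all junctions. By the exact binomial test, among junctions with 100 or more reads, 52.5% of 118 in the windows and 6.13% of 45621 in the rest of the file were called. By class, the same test called 69 of 126 leader introns, 31 higher in R1 and 38 higher in R2, and edgeR called 14 of them, 9 higher in R1 and 5 higher in R2. Of 45 junctions into and within constant genes, 14 were called by the exact binomial test.

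**Figure D1:**
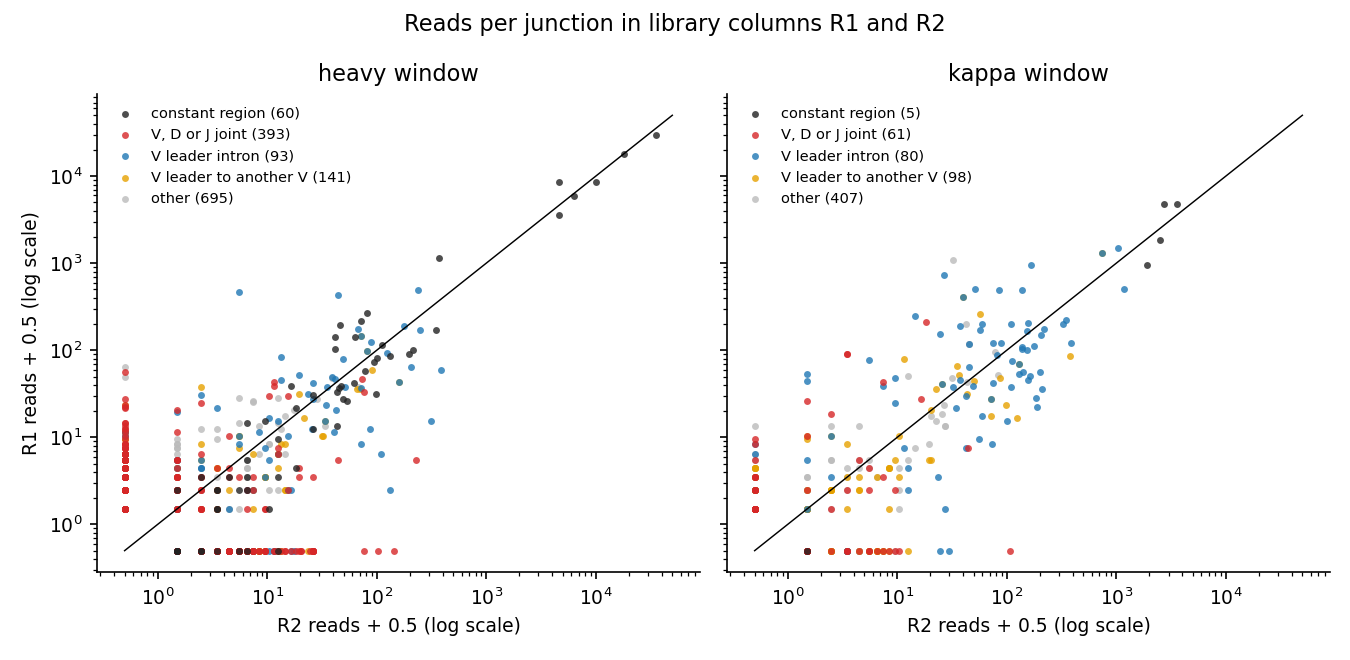
Reads plus 0.5 of each junction in R1 (vertical) and R2 (horizontal) on log scales, by class, in the heavy window (left, 1382 junctions) and the kappa window (right, 651 junctions); the line marks equal reads. Igha introns 1 and 2 lie near the line, Ighg1 intron 2 lies above it with 1149 reads in R1 and 369 in R2, V leader introns scatter on both sides of it, and many joints lie along an axis, with reads in 1 library.

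Splicing within and into Igha dominated the heavy window. Igha intron 2 (chr12:114497374-114497579, 206 bases) had 29309 reads in R1 and 35336 in R2, the most of any window junction. Igha intron 1 (chr12:114497916-114498144, 229 bases) had 17851 reads in R1 and 18032 in R2. Both libraries were thus high at both introns, and the log2 ratios of R1 over R2, on reads scaled to library size, were -0.22 for intron 2 and 0.04 for intron 1. All junctions within constant genes together held 60.9% of the heavy reads, and J segments spliced to constant genes held another 31.2%.

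The 4 heavy J segments all spliced to Igha across about the same distance. Ighj1 (chr12:114498448-114667991, 169544 bases) had 8531 reads in R1 and 4595 in R2. Ighj2 (chr12:114498448-114667678, 169231 bases) had 8635 in R1 and 10039 in R2. Ighj3 (chr12:114498448-114667295, 168848 bases) had 3535 in R1 and 4638 in R2.
Ighj4 (chr12:114498448-114666724, 168277 bases) had 5986 in R1 and 6285 in R2. As a share of the J reads to Igha, Ighj1 made up 32.0% in R1 (exact 95% interval 31.4 to 32.5) and 18.0% in R2 (17.5 to 18.5). Ighj2 made up 32.4% in R1 (31.8 to 32.9) and 39.3% in R2 (38.7 to 39.9), so it led in both libraries, by a margin within the interval in R1. The difference at Ighj1 had a log2 ratio of 0.94 and an adjusted p of 2.19e-291 by a two-sided exact binomial test, and stayed under the log2 ratio of 1 required for a call.

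**Figure D2:**
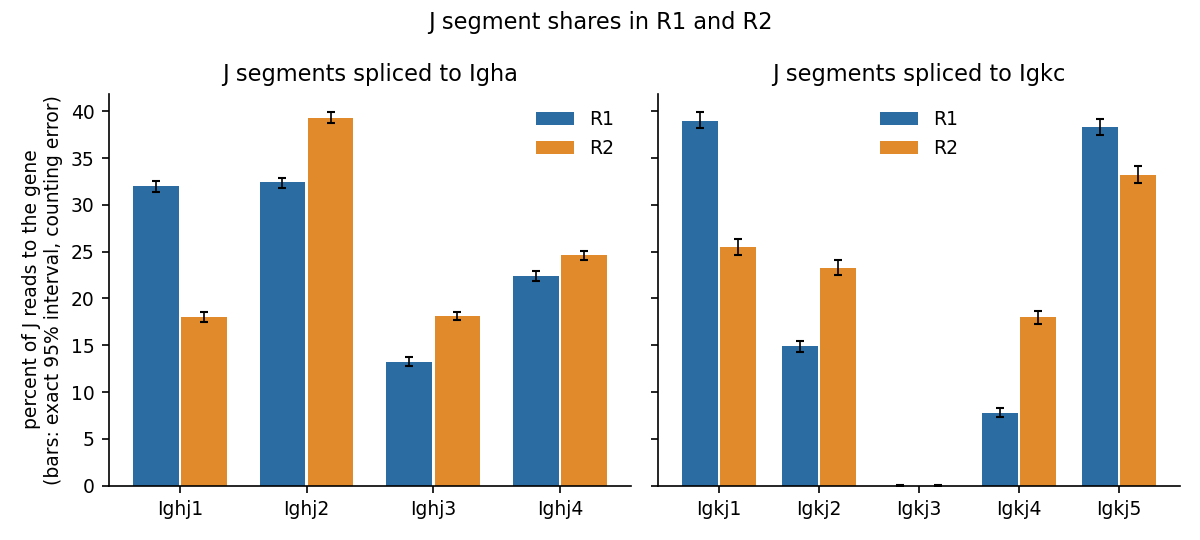
Percent of J reads spliced to Igha (left) and to Igkc (right) that came from each J segment, in R1 and R2, with exact 95% intervals that cover counting error only. Ighj1 stands at 32.0% in R1 and 18.0% in R2, Igkj1 at 39.0% in R1 and 25.5% in R2, and Igkj3 is at or near 0 in both.

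Over the other heavy constant genes together, Ighj1 made up 23.2% in R1 and 24.2% in R2, Ighj2 28.0% and 29.9%, Ighj3 21.6% and 19.8%, and Ighj4 27.2% and 26.0%, R1 given first. These shares rest on far fewer reads, 926 in R1 and 615 in R2, and pool genes that ran in different directions. In Ighm, Ighj2 made up 22.6% in R1 (exact 95% interval 15.9 to 30.6) and 38.1% in R2 (32.1 to 44.3). In Ighg1, Ighj2 made up 28.1% in R1 (24.8 to 31.6) and 20.7% in R2 (15.6 to 26.7), and Ighj1 made up 20.4% in R1 (17.4 to 23.6) and 28.4% in R2 (22.5 to 34.8). Whether J shares differed between genes was not tested.

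The same step in the kappa locus joins Igkj segments to Igkc. Igkj5 (chr6:70673918-70676428, 2511 bases) had 4736 reads in R1 and 3558 in R2. Igkj1 (chr6:70672594-70676428, 3835 bases) had 4823 in R1 and 2728 in R2. Igkj2 (chr6:70672949-70676428, 3480 bases) had 1839 in R1 and 2496 in R2.
Igkj4 (chr6:70673580-70676428, 2849 bases) had 961 in R1 and 1927 in R2. Igkj1 and Igkj5 were thus higher in R1, and Igkj2 and Igkj4 higher in R2. None of these 4 passed the call rule, with log2 ratios between -0.95 and 0.87. Igkj3, known in the mouse as a J segment that is not used, had 0 reads in R1 and 1 in R2. A count of 0 in R1 allows a share of up to 0.0243% of the J reads to Igkc.

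Summed over J segments, Igha took 96.6% of the J to heavy constant reads in R1 (exact 95% interval 96.4 to 96.9) and 97.7% in R2 (97.5 to 97.8). Ighg1 followed with 687 reads (2.49%, interval 2.31 to 2.68) in R1 and 222 (0.848%, 0.741 to 0.967) in R2. Ighm had 137 reads (0.496%) in R1 and 260 (0.993%) in R2. Ighg2b had 78 reads in R1 and 79 in R2, and Ighg3 had 18 in each.
The smallest classes were Ighd with 6 reads in R1 and 15 in R2, Ighg2c with 0 and 19, and Ighe with 0 and 2. For Ighg2c, the IgG gene that C57BL/6 mice carry in place of Ighg2a, the J reads were at least 6.11-fold higher in R2 than in R1, taking 3 reads as the limit for the library at 0. Its own introns had reads in R1 too, with 3 in R1 and 12 in R2 over intron 1 and 4 in R1 and 18 in R2 over intron 2. Intron 2 had a log2 ratio of -1.99 and was called, but not with edgeR. The order Igha, Ighg1, Ighm in R1 became Igha, Ighm, Ighg1 in R2, and the intervals of Ighg1 and Ighm in R2 overlap.

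The difference at Ighg1 was seen at its J junctions and at introns 1 to 3. Introns 4 and 5 had few reads and did not show it, with 5 in R1 and 6 in R2, and 2 and 3. From Ighj1 to Ighg1 there were 140 reads in R1 and 63 in R2, from Ighj2 193 and 46, from Ighj3 140 and 41, and from Ighj4 214 and 72, R1 given first. Each of these 4 was called, with log2 ratios of 1.20, 2.11, 1.81 and 1.62. Within the gene, intron 1 (350 bases) had 268 reads in R1 and 81 in R2, and intron 2 (103 bases) had 1149 in R1 and 369 in R2.
Intron 3 (121 bases) had 104 in R1 and 41 in R2. These 3 were called as well, with log2 ratios of 1.77, 1.69 and 1.38. These 7 junctions can be read from the same transcripts and are not independent. With edgeR none of the 7 was called, with adjusted p between 0.458 and 1.0. Ighm lay the other way: intron 1 had 90 reads in R1 and 197 in R2, intron 2 had 169 and 350, and intron 3 had 99 and 216, and introns 1 and 3 were called with log2 ratios of -1.07 each, but not with edgeR. Intron 2 fell just short of the ratio needed for a call. Ighm introns 4 and 5 were closer between the libraries and not called, with 80 reads in R1 and 101 in R2, and 58 and 78.

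Of 38 introns annotated in 8 heavy constant genes, 32 had reads and 28 had reads in both libraries. Ighd was read over 4 of its 5 introns, among them the last, with 27 reads in R1 and 49 in R2. Ighe had 1 read over 1 of its 5 introns. Ighg3 was uneven, with 13 reads in R1 and 43 in R2 over intron 1 and 38 in R1 and 16 in R2 over intron 2, called in opposite directions, neither of them with edgeR. That split within 1 gene rests on 56 and 54 reads.

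Heavy chains are made in a secreted form and a membrane form, the receptor of B cells, by a choice at the end of the transcript. In Igha the intron to the membrane exon had 115 reads in R1 and 111 in R2, which is 0.392 per 100 reads over the last intron of the secreted form in R1 and 0.314 in R2. In Ighm the corresponding intron had 80 reads in R1 and 101 in R2, which is 80.8 per 100 in R1 and 46.8 in R2. In Ighg1 it had 5 and 6 reads, which is 4.81 per 100 in R1 and 14.6 in R2. Membrane splicing was thus rare beside the secreted-form intron in Igha and common beside it in Ighm, in both libraries. The last intron of the secreted form is spliced in both forms, so these are ratios of reads and not of molecules, and the Ighg1 ratios rest on few reads. The last secreted-form intron of Ighg1, intron 3, had 104 reads in R1 and 41 in R2, beside 1149 and 369 over intron 2. The Ighg1 ratios would thus be far lower over intron 2.

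An unannotated donor lay in the intron between the J segments and Ighm, 1859 bases beyond the end of Ighj4 (chr12, position 114664865, minus strand). In this interval the known I exon of Ighm begins germline transcripts in the mouse. The donor joined Ighm with 48 reads in R1 and 39 in R2, Igha with 37 in R1 and 67 in R2, Ighg1 with 14 and 5, and Ighg2b with 8 and 10. It also joined Ighd with 2 reads in each library, Ighg2c with 3 in R1 and 0 in R2, and Ighg3 with 0 and 2.
At the Ighm acceptor this donor made up 25.9% of the reads from it and the J segments in R1 and 13.0% in R2. At the Igha acceptor it made up 0.138% in R1 and 0.261% in R2. None of the 4 junctions of at least 10 reads was called. The Ighm acceptor (position 114660942) was also reached from 28 further upstream positions, with 66 reads in R1 and 20 in R2 in all and at most 8 at any of them.

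The short introns between the leader exon, which encodes the signal peptide, and the V exon show which V segments were transcribed. There were 93 such junctions in the heavy window, in 92 of 194 annotated V segments, with 3491 reads in R1 and 3468 in R2. There were 80 in the kappa window, in 80 of 176 V segments, with 11417 reads in R1 and 9085 in R2. The V segments counted were all annotated ones, pseudogenes included. Heavy leader introns had a median of 83 bases and kappa leader introns a median of 178 bases. Of the kappa ones 34 lay on the plus strand and 46 on the minus strand.

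The heavy leader totals of the libraries were close and the segments behind them were not. Ighv2-2 (chr12:114826782-114826865) led the heavy window with 496 reads in R1 and 237 in R2. Ighv2-3 (chr12:114849699-114849782) had 436 in R1 and 44 in R2, and Ighv3-3 (chr12:115434957-115435043) had 464 in R1 and 5 in R2. Ighv3-3 was the second segment of R1 and ranked 55 in R2.
Ighv2-9 had 59 reads in R1 and 390 in R2 and led R2, Ighv2-6 had 15 and 312, and Ighv1-78 had 2 and 133. Other segments were closer and not called: Ighv1-76 had 189 reads in R1 and 176 in R2, and Ighv1-50 had 171 and 250. The 10 highest segments of R1 and of R2 had 4 in common. Each library's own 10 held 68.5% of the heavy leader reads in R1 and 60.5% in R2. With edgeR the calls of Ighv3-3 and Ighv2-3 held and that of Ighv2-2 was lost.

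Among kappa segments Igkv10-94 (chr6:68654800-68654923) led with 1503 reads in R1 and 1032 in R2. Igkv10-96 (chr6:68582255-68582375) had 1306 in R1 and 742 in R2. Igkv6-23 (chr6:70210701-70210878) had 511 in R1 and 1178 in R2, the most in R2. Among these the order of the libraries already changes.
Igkv3-12 (chr6:70468293-70468533) had 942 reads in R1 and 165 in R2, and Igkv8-19 (chr6:70291186-70291393) had 741 and 26. Igkv6-13 had 244 in R1 and 14 in R2, while Igkv6-17 had 121 and 388 and Igkv14-100 had 8 and 73. The 10 highest kappa segments of R1 and of R2 had 3 in common, and each library's own 10 held 62.5% of the kappa leader reads in R1 and 53.3% in R2. With edgeR the call of Igkv8-19 held, and those of Igkv6-23, Igkv3-12 and Igkv14-100 were lost.

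**Figure D3:**
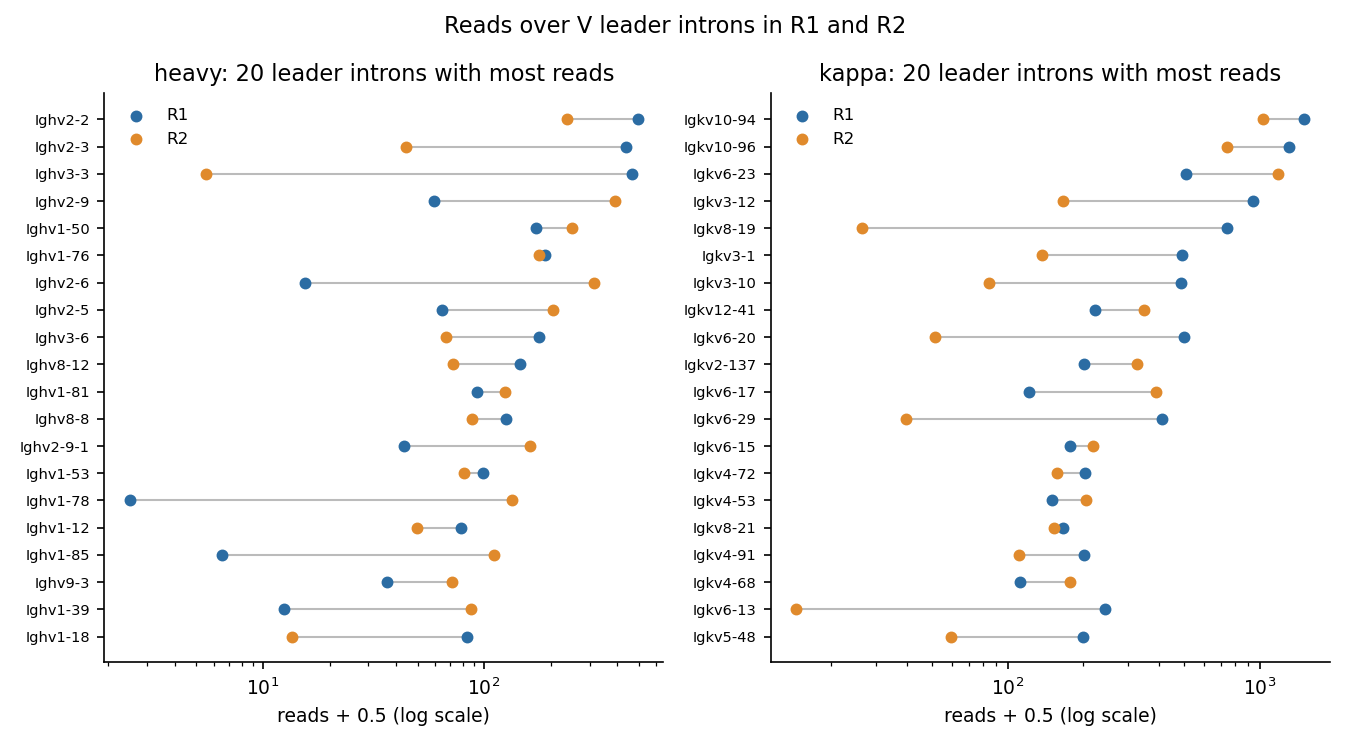
Reads (plus 0.5, log scale) over the 20 V leader introns with most reads in the heavy window (left) and the kappa window (right), with R1 and R2 as points of different colour joined by a line. Ighv3-3 stands at 464 reads in R1 and 5 in R2, and Ighv1-76 at 189 in R1 and 176 in R2.

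By family, the 7 junctions of Ighv3 segments held 19.4% of heavy leader reads in R1 and 2.28% in R2. Ighv3-3 led the family in R1, with 464 of its 676 reads, and Ighv3-6 led it in R2, with 67 of its 79. The 46 junctions of Ighv1, the family with most of these junctions, held 35.0% in R1 and 44.5% in R2, and the 9 of Ighv2 held 33.6% and 39.9%. The 3 junctions of Igkv10 held 24.6% in R1 and 19.6% in R2, the 9 of Igkv6 held 18.9% and 23.5%, and the 9 of Igkv3 held 19.9% and 7.73%.

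Further junctions ran from the leader exon of a V segment to the V exon of another, 141 in the heavy window with 783 reads in R1 and 1100 in R2 and 98 in the kappa window with 2784 reads in R1 and 2286 in R2. Some had the counts of an ordinary leader intron. From the Igkv10-94 leader to the Igkv10-96 exon (chr6:68582255-68654923, 72669 bases) there were 1307 reads in R1 and 742 in R2, and Igkv10-96's own leader intron had 1306 and 742. From the Igkv6-20 leader to Igkv6-29 there were 411 reads in R1 and 39 in R2, exactly those of Igkv6-29's own leader intron. From the Ighv8-14 leader to Ighv8-12 there were 145 and 72, again exactly those of the ordinary intron.

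Of the 67 such junctions with at least 10 reads, 14 matched the ordinary leader intron of the same V exon within 2 reads in both libraries, 8 in the heavy window and 6 in the kappa window. In these 14 pairs the last 42 to 88 bases of both leader exons were equal. The last 40 bases of the pair with most reads are identical, as both lines show.
Igkv10-94 leader: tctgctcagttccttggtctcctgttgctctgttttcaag
Igkv10-96 leader: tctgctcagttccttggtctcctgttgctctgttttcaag

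Reads of such segments are uncertain, since a read that ends in the shared bases fits either leader. Over all classes, 51 of 363 window junctions with at least 10 reads (14.0%) shared an end with another junction of equal R1 and equal R2, against 1.32% in the rest of the file. Counting each such set once left 167 of 331 window junctions called (50.5%).

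Long gaps that joined the ends of V, D and J segments, the form that V(D)J joints take against an unrearranged genome, numbered 454, 393 in the heavy window and 61 in the kappa window. They held 1597 reads in R1 and 2143 in R2. Each row name in the file carries a tag A and a tag C, neither defined there, and of the 454 joints 443 had C = 0 and none had A = 1, and 72 had reads in both libraries. Of 68 with at least 10 reads, 57 were called (83.8%), 25 higher in R1 and 32 higher in R2, with a median absolute log2 ratio of 4.58. With edgeR 18 of the 68 were called, 5 higher in R1 and 13 higher in R2.

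Among kappa joints Igkv3-12 to Igkj2 (chr6:70468841-70672910, 204070 bases) had 213 reads in R1 and 18 in R2, a log2 ratio of 3.58 with an adjusted p of 7.61e-43 by the exact binomial test. Igkv3-7 to Igkj2 (chr6:70558028-70672910, 114883 bases) had 0 in R1 and 107 in R2, at least 34.4-fold higher in R2. Igkv3-10 to Igkj1 (chr6:70523222-70672555, 149334 bases) had 90 in R1 and 3 in R2.
Igkv3-1 to Igkj1 had 89 reads in R1 and 3 in R2 at the position with most reads. The leader introns of these V segments had the following reads, R1 given first: Igkv3-12 with 942 reads in R1 and 165 in R2, Igkv3-7 with 35 and 211, Igkv3-10 with 488 and 84, and Igkv3-1 with 492 and 136. These lay on the same side as the joints just given, and some other called joints did not. Igkv6-17 to Igkj5 had 26 reads in R1 and 1 in R2, against the side of the Igkv6-17 leader intron, with 121 in R1 and 388 in R2. Igkv6-17 to Igkj1, with 7 reads in R1 and 44 in R2, lay on the side of that leader intron. Igkv3-1 to Igkj2 had 0 reads in R1 and 10 in R2, against the side of its leader intron. Reads of a leader intron and of a joint can come from the same transcripts. Of the kappa joint reads, 48.4% in R1 and 31.1% in R2 ended at Igkj1, and 44.9% in R1 and 58.0% in R2 at Igkj2. Igkj5 took 6.05% of them in R1 and 4.49% in R2, beside 38.3% and 33.2% of the J reads to Igkc. Only joints of V and J segments on the same strand could be found, and the kappa joints came from 11 V segments. Of the 80 kappa leader introns 46, with 14121 reads, lay on the minus strand, opposite to the Igkj segments. These J shares therefore do not describe kappa transcripts as a whole.

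The reading frame could be worked out for 55 kappa joints whose ends lay within the annotated segments. In 49 of them (89.1%) the V and J segments were in the same frame, and these held 868 of 883 reads, or 98.3% in R1 and 98.3% in R2. The 3 kappa joints printed at the start are among them. This check was chosen after the joints had been seen.

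In the heavy window 185 junctions joined D to J segments, 102 joined V to D and 106 joined V to J. For V to J, the median of bases left out was -2 at the V end and -1 at the J start. A negative value means that the gap began or ended outside the annotated segment. Whether these joints held D bases was not tested. Ighd1-1 supplied 69.6% of the D to J reads in R1 and 73.1% in R2, and it took 83.1% of the V to D reads in R1 and 90.4% in R2. Its joints with Ighj2 lay at 28 sets of positions with 207 reads in R1 and 250 in R2 together, but the single positions differed. One (chr12:114667719-114720379, 52661 bases) had 0 reads in R1 and 144 in R2, at least 46.3-fold higher in R2, while the next position on the D side (chr12:114667719-114720380) had 43 in R1 and 11 in R2.
With Ighj4, one joint (chr12:114666771-114720380, 53610 bases) had 5 reads in R1 and 229 in R2, and another (chr12:114666774-114720379, 53606 bases) had 56 in R1 and 0 in R2, at least 19.4-fold higher in R1. With Ighj1 the leading joint (chr12:114668041-114720380) had 46 in R1 and 73 in R2 and was not called. The D segments Ighd2-3 to Ighd2-8 resemble each other, so the share of each is uncertain.

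V to D and V to J joints in the heavy window had reads in both libraries for 9 of 102 (8.82%) and 4 of 106 (3.77%), beside 41.0% of all junctions in the file. Single reads, which cannot be shared, made up 42 of the 102 and 37 of the 106. Ighv5-9 to Ighd1-1 (chr12:114720400-114899979, 179580 bases) had 0 reads in R1 and 103 in R2, at least 33.1-fold higher in R2. Ighv5-15 to Ighj4 (chr12:114666782-115064854, 398073 bases) had 0 in R1 and 76 in R2, at least 24.4-fold higher in R2. Ighd2-4 to Ighj4 (chr12:114666780-114708904) had 27 in R1 and 0 in R2, at least 9.33-fold higher in R1.
From 7 V segments, Ighv5-4 and Ighv5-16 among them, a joint to the same Ighj2 position had exactly 0 reads in R1 and 26 in R2. These equal counts at a shared end cannot be told apart from 1 set of reads placed at 7 positions, and each was counted.

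Some junctions with many reads matched no annotated intron. A kappa junction, chr6:68785144-68785261 (118 bases), had 1099 reads in R1 and 32 in R2, a log2 ratio of 5.13. It starts from the annotated donor of the Igkv12-89 leader and ends 6 bases short of the nearest annotated acceptor, whose intron is 124 bases long. At Igkv15-103 a junction (chr6:68387509-68387619) had 199 reads in R1 and 42 in R2, with the annotated length of 111 bases but both ends shifted by 2 bases.
In the heavy window chr12:114720400-115560585 (840186 bases), which ends at Ighd1-1, had 64 reads in R1 and 0 in R2, at least 22.1-fold higher in R1. Its other end lay near Ighv3-8, whose leader intron is at chr12:115560889-115560969. A junction to the Ighj4 start from an unannotated position (chr12:114666772-115134604, 467833 bases) had 49 in R1 and 0 in R2, at least 16.9-fold higher in R1. That position lay past the end of Ighv7-1 (position 115134618), by more than the 10 bases accepted for a V end. Neither of these heavy junctions was counted among the 454 joints. Of the junctions paired with annotated introns, 10 were in genes that are not immunoglobulins, 8 of Rpia in the kappa window and 1 each of Tedc1 and Tmem121 in the heavy window. Others may have been left unpaired. On the plus strand, opposite to the heavy locus, chr12:117286078-117293189 (27 reads in R1 and 28 in R2, A = 1) was not paired. Nor was chr12:117286435-117293189 (20 and 17) at the same end. Which gene they belong to was not tested.

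Among the largest ratios were also leader introns of few reads. Higher in R1 were Igkv3-9 (chr6:70538232-70538461) with 53 reads in R1 and 1 in R2 and Igkv9-123 (chr6:67904520-67904629) with 44 and 1. Higher in R2 were Igkv1-99 (chr6:68491701-68492103) with 0 reads in R1 and 29 in R2, Igkv4-69 (chr6:69234087-69234264) with 0 and 24, and Igkv1-133 (chr6:67674957-67675342) with 1 and 27. Igkv1-99 was at least 9.32-fold and Igkv4-69 at least 7.72-fold higher in R2. With edgeR the call of Igkv1-133 was lost.

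Intron lengths followed these classes. Gaps of 100000 bases or more made up 575 of 1382 heavy junctions (41.6%) and 249 of 651 kappa junctions (38.2%), against 12.8% of junctions in the rest of the file. They held 32.1% of the heavy reads (52244 of 55315 of these from J segments to Igha), 5.77% of the kappa reads, and 0.856% of the reads in the rest of the file.
Spans of 2000 bases up to 10000, which include J to Igkc, held 44.5% of the kappa reads, and spans of 200 bases up to 2000, which include Igha introns 1 and 2, held 59.3% of the heavy reads. The median span was 53042 bases in the heavy window and 54523 bases in the kappa window, and 1703 bases in the rest.

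**Figure D4:**
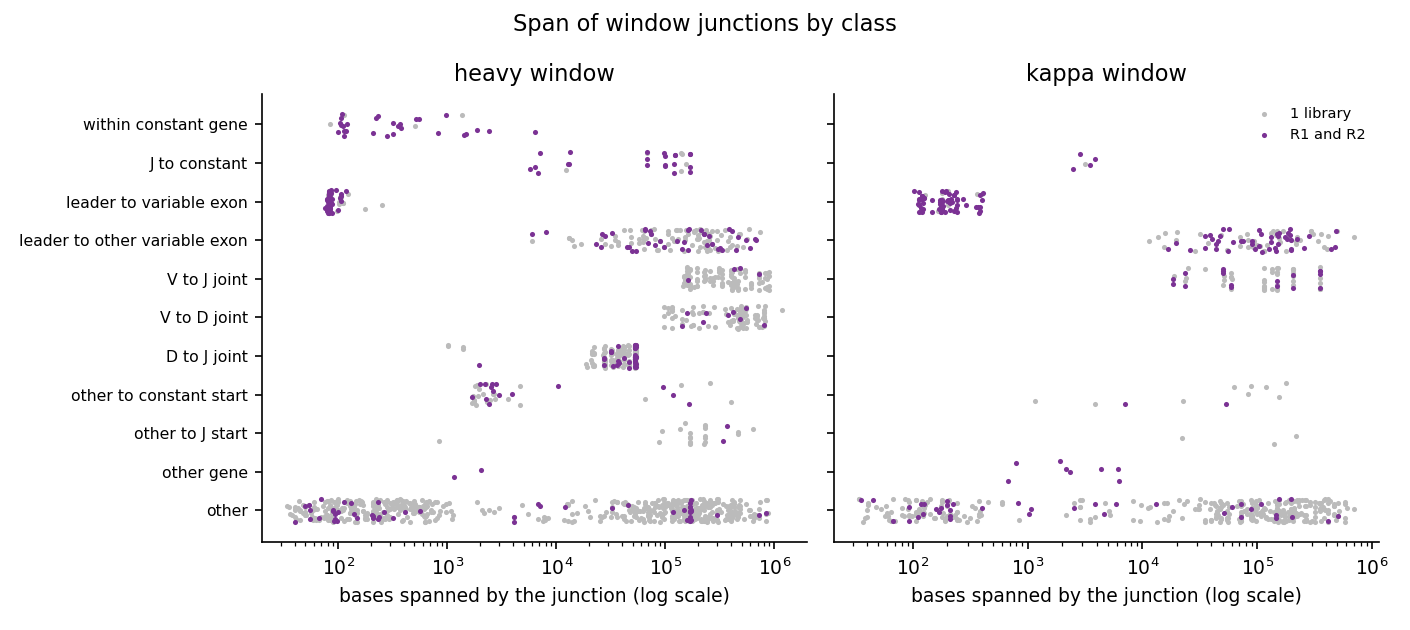
Bases spanned by each window junction (log scale) by class, in the heavy window (left) and the kappa window (right); coloured points had reads in both R1 and R2 and grey points in 1 library. Leader introns form a narrow band, with medians of 83 bases (heavy) and 178 bases (kappa), J to Igkc lies between 2511 and 3835 bases, and joints and leaders spliced to another V exon span up to 1175162 bases.

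The longest gaps that both libraries held were chr12:114720405-115560586 (840182 bases, 1 read in R1 and 4 in R2), Ighv3-6 to Ighd1-1 (805960 bases, 1 and 9) and Ighv7-3 to Ighj4 (724612 bases, 7 and 12). Ighv3-1 to Ighd1-1, a shorter joint of 482196 bases at the same D end, also had 1 read in R1 and 9 in R2, so reads of this joint and of the Ighv3-6 joint cannot be told apart. The longest kappa gaps were chr6:70053210-70557720 (504511 bases, 5 and 2), the Igkv12-44 leader to Igkv12-67 (490576 bases, 2 and 4) and the Igkv4-54 leader to Igkv4-75 (475703 bases, 2 and 2). The shortest were 40, 49 and 54 bases in the heavy window, with at most 6 reads in either library. The shortest kappa spans were 35, 45 and 67 bases, all within the contig over Igkc, with at most 10 reads in either library. Only Ighv3-6 to Ighd1-1, Ighv7-3 to Ighj4 and the kappa spans of 35 and 67 bases reached the 10 reads needed for a test. None of them was called.

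The junctions clustered on a few ends. In the heavy window the Ighm acceptor was used by 33 junctions with 251 reads in R1 and 319 in R2, an Ighd1-1 end (position 114720400) by 23 with 110 and 183, and an Ighj2 end (position 114667727) by 17 with 18 and 201. In the kappa window the Igkc acceptor (position 70676428) was used by 16 junctions with 12362 reads in R1 and 10727 in R2, the Igkv3-1 exon start (position 70653861) by 13 with 573 and 198, and an Igkj2 end (position 70672910) by 11 with 255 and 160. Of 1493 heavy ends 1025 were used by 1 junction, and of 872 kappa ends 661.

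Tag A was 1 in 63 heavy junctions (4.56%) and 59 kappa junctions (9.06%), against 38.4% in the rest of the file. These held 4.38% of the heavy reads, 31.9% of the kappa reads and 91.5% of the reads in the rest. On chromosomes 12 and 6, 99.8% of junctions with A = 1 and 39.1% of those with A = 0 had the length of a GENCODE vM21 intron on the same strand. With the length shifted by 1 base these shares were 57.4% and 36.8%. In the windows A was 1 for 41 of 93 heavy and 51 of 80 kappa leader introns and for 18 of 32 constant gene introns. It was 0 for all 3 Igha introns and all J to constant junctions, among them the junctions of highest count.

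Sharing between the libraries was lower in the windows. Of 2033 window junctions 469 had reads in both R1 and R2 (23.1%), 627 in R1 alone and 937 in R2 alone, against 41.1% shared in the rest of the file. The shared ones held 98.0% of window reads. Single reads made up 43.5% of window junctions and 37.9% of the rest, and a single read cannot be shared.
At equal reads the gap persisted. With 5 to 9 reads, 38.3% of window junctions and 69.6% of the rest were shared. With 10 to 19 reads these shares were 67.9% and 95.3%, and with 20 to 99 reads 84.2% and 99.5%. Among leader introns with 20 to 99 reads 95.5% were shared, and among joints of that count 51.5%.

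**Figure D5:**
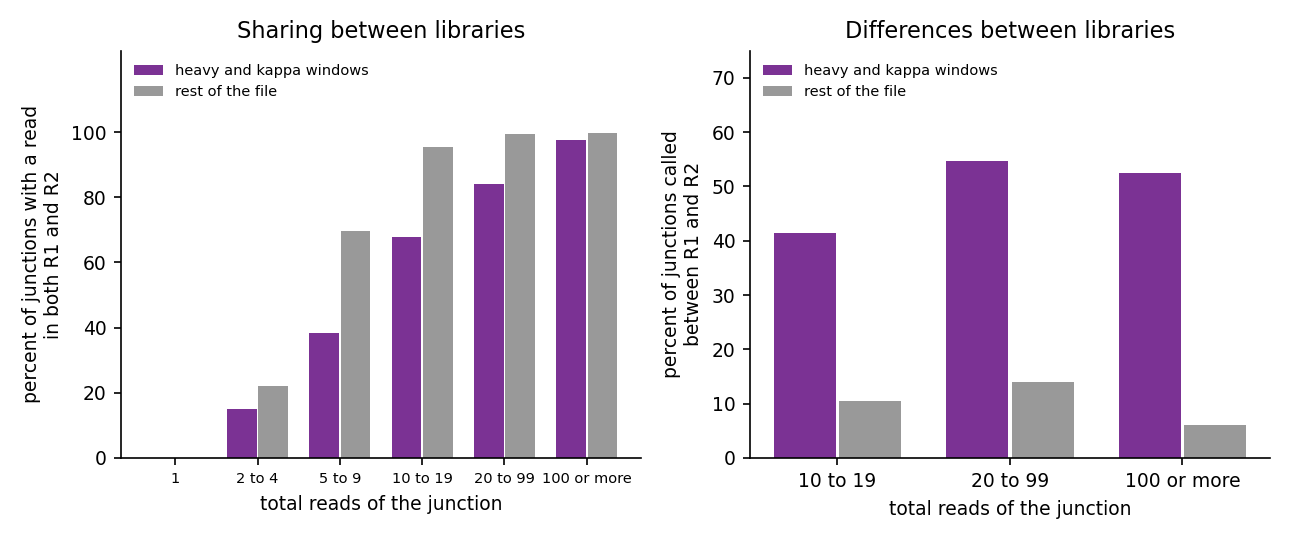
Left, percent of junctions with a read in both R1 and R2 by total reads, in the windows and in the rest of the file; right, percent called between R1 and R2. With 10 to 19 reads 67.9% of window junctions and 95.3% of the rest were shared, and with 100 or more reads 52.5% and 6.13% were called.

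The gene tables give a separate readout of the constant genes, by replicate number. Igha had 5455.42 TPM in replicate 1 and 5638.64 TPM in replicate 2 (5547 ± 130 SD, n = 2), and Igkc had 5115.46 and 5980.95 TPM (5548 ± 612). Both were high in both replicates. Ighg1 had 144.79 TPM in replicate 1 and 54.71 TPM in replicate 2, and Ighm had 39.79 and 77.89 TPM.
Ighg2b had 19.76 TPM in replicate 1 and 23.83 TPM in replicate 2, Ighd 4.92 and 8.34, Ighg3 3.48 and 4.75, Ighg2c 0.82 and 4.30, and Ighe 0.05 and 0.07. Tested on expected counts by the same exact binomial test over all genes, Ighg1 was called with a log2 ratio of 1.38 (4627 against 1742 counts) and Ighg2c with -2.41 (27 against 142). In all, 4 of 23 tested genes of the immunoglobulin and B lineage list were called, 2 in each direction, beside 6.12% of 17770 genes. With edgeR 1 of the 23 was called, Ighg2c. The median log2 ratio of the list was -0.18, against -0.01 over all genes tested.

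Ms4a1, which encodes the B cell surface protein CD20, was also called, with 0.18 TPM in replicate 1 and 0.47 TPM in replicate 2. Jchain, which links IgA into dimers, had 271.22 and 301.41 TPM, and Pigr had 744.81 and 833.31 TPM, replicate 1 given first. Xbp1 (170.65 and 131.35 TPM) and Prdm1 (1.64 and 1.41 TPM), regulators of plasma cells, were not called, nor was Cd79a (24.61 and 25.57 TPM), part of the B cell receptor. The enzymes of V(D)J recombination, Rag1 and Rag2, and Dntt, which adds bases at joints, had 0 to 1 count in either replicate.

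Contigs, stretches of continuous transcription in the deposited contig file, covered the same places. The contig with the highest signal in the heavy window (chr12:114496631-114499510) lay over Igha with a signal of 1290 and touched 169 junctions with 153682 reads. The highest in the kappa window (chr6:70675553-70676960) lay over Igkc with a signal of 951 and touched 97 junctions with 23254 reads. In the heavy window 221 of 332 contigs touched a junction end, with a median signal of 4.56, against 0.196 for those that touched none. In the kappa window 176 of 255 did, with a median of 6.46, against 0.185.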

How the data were processed

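The deposited junction file (mm9) gives a count of reads per junction, equal in every row to R1 plus R2 in the row name; display and other score columns that the authors deposited beside it are not defined and were used nowhere. Gene tables (mm10) give expected counts and TPM, as deposited by the authors, and were rounded before testing; the deposited contig file gives a signal per contig. The sources used here name no aligner, no junction or contig caller and no scaling of the signal.

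Library sizes were scaled by edgeR 4.0.16 TMM (R 4.3.3) over features of at least 10 counts. Each feature was tested by a two-sided exact binomial test (scipy 1.17.1), with Benjamini-Hochberg adjustment over all features tested; 0.5 was added to counts before a ratio. On data simulated with counting error alone for R1 against R2, 200 of 200 changed junctions were recovered and 4 unchanged ones called among 115982 tested. The changed ones were drawn from junctions of 100 or more reads and had a median absolute log2 ratio of 1.98. Spread beyond counting was not simulated, so the rate of false calls in the real libraries is not given by it. Intervals are exact 95% binomial intervals; they and limits from a count of 0 (3 counts) cover counting error only.

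V ends were accepted up to 25 bases inside or 10 outside a segment, J starts up to 25 inside or 5 outside, and D ends within 10 bases. Junctions named are the 10 with most reads per window, the 5 called with the largest ratio in each direction (at least 20 reads; ties in file order), the 3 ends most used, the 3 longest and 3 shortest introns shared, constant gene introns and the gene list; other junctions were picked for naming with their values in view. Members, lists, classes and segment names were chosen with earlier results of these data known. Of 29 listed genes, 27 were found by symbol in GENCODE vM21. The values of 1 listed gene are not reported here.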

Additional observations from a re-analysis of the deposited data

How the results depend on the processing

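Of 643 values of 99 named junctions and genes under other settings, 592 kept their side of the threshold, 37 lost and 14 gained a call. A change of sign was counted only where a call was involved, and 0 were found. With edgeR alone, 22 of the 99 lost a call. Many of the 99, most of the listed genes among them, were not called as reported and could not lose a call. The share of calls that held is therefore not given by these counts. The 2033 window junctions fell to 1148 with at least 2 reads and 363 with at least 10, and to between 1096 and 1406 in a single library. The 469 shared junctions fell to 238 with at least 5 reads in each. Called window junctions numbered 182 of 363 tested as reported (50.1%, against 10.4% of all junctions). At a summed count of at least 50 they numbered 90 of 176 (51.1%, against 9.01% of all), 40 of 83 in the heavy window. With edgeR's exact test they numbered 36 of 363 (9.92%, against 0.417% of all), 21 heavy (6 higher in R1, 15 in R2) and 15 kappa (12 and 3). Called leader introns numbered 14 of 126 with edgeR (9 higher in R1, 5 in R2). At an absolute log2 ratio of 2 they numbered 45 of 126 (35.7%, against 4.26% of all junctions). Called joints numbered 18 of 68 with edgeR (5 and 13). They numbered 37 of 40 at a summed count of 20 (92.5%, against 10.7% of all) and 13 of 14 at 50 (92.9%, against 9.01%). Fewer junctions were tested at higher counts, and edgeR allows for spread beyond counting, estimated from the same 2 libraries. Gaps of 100000 bases or more were 23.1% of heavy and 22.9% of kappa junctions shared by both libraries, and 30.5% and 17.5% of those with at least 10 reads. The most junctions at 1 end were 15 (heavy) and 7 (kappa) among shared junctions. Called genes of the list numbered 4 as reported, 2 at a summed count of 100 and 1, Ighg2c, with edgeR. The median contig signal over all contigs was 1.29 (heavy) and 2.39 (kappa). Counting junctions of equal counts once was added after seeing the data. No paired analysis was possible because there is 1 group.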
